A study of Homo sapiens with 6 samples.

Results

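The mitochondrial ribosomal protein genes of Huh7-R cells were described here, before and after fostamatinib. They were taken as every gene of the RNA-seq files whose symbol is MRPL or MRPS followed by a number and, in some, a final A, B or C. This gave 78 of the 16305 genes in the files, of which 49 carried large subunit symbols (MRPL) and 29 small subunit symbols (MRPS). A further 5 rows with related symbols, which are pseudogenes or antisense transcripts (MRPL3P1, MRPL23-AS1, MRPL45P2, MRPS31P4 and MRPS31P5), were left out. Huh7-R, labelled Huh7SR, is a pool of cells made resistant to the kinase inhibitor sorafenib by long-term exposure of the human hepatocellular carcinoma line Huh7, and the drug was withdrawn before the experiments. The 6 samples were 3 treated with fostamatinib, the prodrug of an inhibitor of the spleen tyrosine kinase SYK, at 2 µM for 24 h and 3 treated with the vehicle DMSO for 24 h, for which the label also gives 2 µM. Both groups were thus sorafenib-resistant cells of the same pool, and no parental or untreated cells were compared. Whether the 3 samples per treatment came from separate cultures is not stated in the labels, so the p-values measure only the spread between these samples, which may be technical.

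The libraries held 13303451 to 15272737 reads on the genes that passed the authors' filter. The 8 hepatocyte and hepatoma markers examined, ALB and AFP among them, were all listed, at 20 to 34288 reads per sample. None of 3 leukocyte markers was listed, nor were VWF and CDH5 of the endothelium or DCN of fibroblasts. PECAM1 (84 to 141 reads) and COL1A1, COL3A1 and PDGFRB (10 to 101 reads) were listed at low levels. Values were deposited as log2 CPM, the log2 of a gene's reads scaled to a common library size, and a gene was called higher or lower when its adjusted p-value was under 0.05 in a limma fit across all genes with Benjamini-Hochberg adjustment.

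Mitochondrial ribosomes translate the few messenger RNAs that mitochondrial DNA encodes, all of them for subunits of the oxidative phosphorylation complexes. Their ribosomal RNAs are encoded in mitochondria, whereas every protein of the particle is encoded in the nucleus, made on cytosolic ribosomes and imported. Compared with bacterial ribosomes they have lost much of their RNA and gained proteins that bacteria lack, so the genes fall into homologues of bacterial ribosomal proteins and mitochondria-specific ones. The small subunit binds the messenger RNA and decodes it. The large subunit joins the amino acids and passes the growing chain through an exit tunnel to the inner membrane. Hepatocytes are rich in mitochondria, and NRF1, the ETS-family factor GABP and YY1 are textbook regulators of nuclear genes for mitochondrial proteins.

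The promoters of the genes are shown first, because their sequence is a feature that the choice by symbol did not use. RefSeq promoter windows on GRCh38.p14, from 250 bases before to 50 bases after the transcription start, were matched by symbol for 69 of the 78 genes. The first listed start was used where a gene had several. The stretch of 150 bases before the start is given for 4 genes that were lower after fostamatinib and for MRPL45, which was higher. None of the 5 has a protein-coding neighbour that starts head to head with it. Capitals mark matches, on either strand, to the core letters of an ETS site (CCGGAAG), an NRF1 site (GCATGCGC) or a YY1 site (AAGATGGC). The sequences run 5′ to 3′ on the strand of the gene. The windows lie at chr3:131502972-131503121 (minus strand) for MRPL3, chr17:57850045-57850194 (minus strand) for MRPS23, chr6:42217862-42218011 (minus strand) for MRPS10, chr11:6683341-6683490 (minus strand) for MRPL17 and chr17:38297018-38297167 (plus strand) for MRPL45.
MRPL3: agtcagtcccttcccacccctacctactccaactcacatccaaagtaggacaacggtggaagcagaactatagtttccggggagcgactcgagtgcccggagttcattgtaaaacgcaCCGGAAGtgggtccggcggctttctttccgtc
MRPS23: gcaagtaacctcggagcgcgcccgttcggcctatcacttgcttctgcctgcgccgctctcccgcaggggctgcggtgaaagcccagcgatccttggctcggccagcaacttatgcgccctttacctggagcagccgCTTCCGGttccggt
MRPS10: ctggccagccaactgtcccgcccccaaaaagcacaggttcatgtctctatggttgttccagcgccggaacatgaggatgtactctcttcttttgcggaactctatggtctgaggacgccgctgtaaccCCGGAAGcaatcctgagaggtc
MRPL17: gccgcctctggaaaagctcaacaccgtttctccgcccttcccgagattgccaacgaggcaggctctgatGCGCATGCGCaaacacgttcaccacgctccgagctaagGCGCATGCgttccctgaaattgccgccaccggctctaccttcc
MRPL45: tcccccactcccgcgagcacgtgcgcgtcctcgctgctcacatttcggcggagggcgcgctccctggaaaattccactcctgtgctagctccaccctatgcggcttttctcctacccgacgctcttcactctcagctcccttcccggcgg

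The ETS letters stood 32, 14 and 22 bases before the start of MRPL3, MRPS23 and MRPS10, and MRPL17 held 3 NRF1 matches, 2 of which overlap on opposite strands. The stretch of MRPL45 held no match to these 3 motifs, although CACGTG, the E-box, lies in it. The YY1 letters lay mostly elsewhere: 15 of the 21 matches in the 69 windows were across or past the start, and the median position of all 21 was 10 bases after it. The 30 bases around such matches are given for MRPL45 and for 3 genes that were lower, with the YY1 letters in capitals. They lie at chr17:38297170-38297199 (plus strand), chr6:42217834-42217863 (minus strand), chr5:44808949-44808978 (plus strand) and chr5:72320206-72320235 (minus strand).
MRPL45: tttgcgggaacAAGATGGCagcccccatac
MRPS10: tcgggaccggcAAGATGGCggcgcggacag
MRPS30: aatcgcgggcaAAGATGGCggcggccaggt
MRPS27: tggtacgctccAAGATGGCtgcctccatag

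Across the 69 windows, the ETS letters occurred in 29 (42.0%), against 18.8% of the 10466 promoters of genes in the files and 10.7% of all 27305 promoters of the table. The YY1 letters occurred in 20 (29.0%), against 5.32% and 3.03%. The NRF1 letters occurred in 6 (8.70%), against 5.45% and 3.27%. The E-box, also in 6 (8.70%), occurred in 10.1% and 7.43% of the same promoters. At least 2 of the ETS, YY1 and NRF1 motifs were present in 12 windows (17.4%), against 2.85% of the genes in the files. Large and small subunit genes held them at similar shares, 40.5% and 44.4% for ETS and 28.6% and 29.6% for YY1. Read by the change after fostamatinib, ETS letters were in 2 of 6 windows of genes that were higher, 12 of 33 that were lower and 15 of 30 that were not called, and YY1 letters in 1, 9 and 10 of them. Median GC content was 60.3% in these windows and 58.3% over the table. A match is a string of letters and not a shown site. Of the 21 YY1 matches 17 lay on the strand of the gene and 4 on the other, whereas the 39 ETS matches split into 18 and 21. The YY1 letters contain ATG, and whether matches past the transcription start fall on start codons of translation was not tested.

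**Figure D1:**
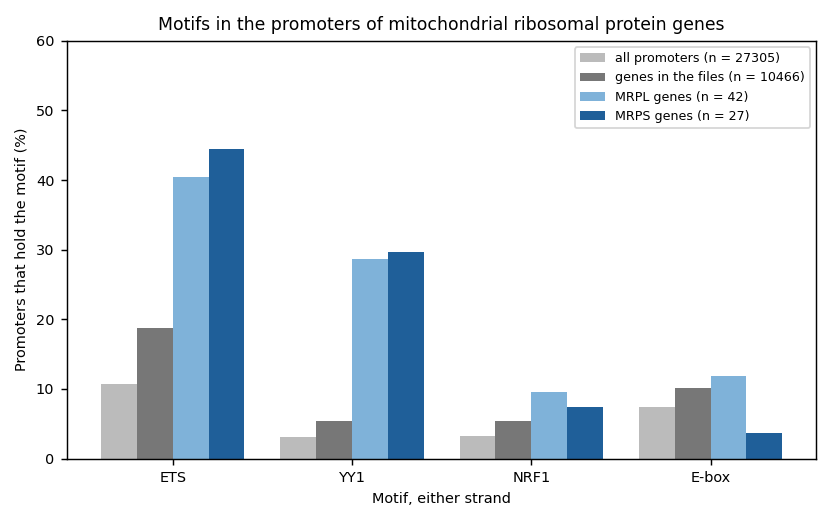
Share of promoter windows (y axis, percent) that hold each motif on either strand (x axis) for all promoters of the table, the genes in the files and the MRPL and MRPS genes. The ETS and YY1 bars of both subunits, at 40.5% and 44.4% and at 28.6% and 29.6%, stand above the 18.8% and 5.32% of the genes in the files.

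After fostamatinib, more mitochondrial ribosomal protein genes were lower than higher. Of the 78 genes, 37 were called lower (47.4%), 8 higher (10.3%) and 33 were not called. Over all 16305 genes 47.8% were called, 24.5% lower and 23.3% higher. For the 10312 genes averaging 100 reads or more 61.1% were called, 32.5% lower and 28.6% higher. The total called among the 78 genes, 57.7%, was thus under that of genes with such depth, and only the direction differed. The fostamatinib samples all lay under the DMSO samples for 38 genes and above them for 11, together 62.8% of the 78. Over all genes 54.1% were so separated, 27.4% on the lower side and 26.8% on the higher. Of the genes averaging 100 reads or more 65.6% were. The median log2 fold change of the 78 genes was -0.14, beside 0.0015 over all genes and -0.018 over those with at least 100 reads. Most changes were small: the range was -1.29 to 0.40, and only MRPS24 and MRPL3 differed by more than 0.5. The standard error of a gene's log2 fold change was 0.064 at the median. Without fostamatinib sample 2 the genes called higher numbered 5, and under a threshold set to 1 expected false positive over all genes the counts were 17 lower and 2 higher.

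The shift was present in each treated sample. Relative to each gene's DMSO mean, the median over the 78 genes stood at -0.0053, 0.021 and -0.0088 under DMSO and at -0.093, -0.14 and -0.18 in fostamatinib samples 1, 2 and 3. All the treated values lay below all the DMSO values. Together the genes took 0.352% ± 0.0023 of the reads in DMSO and 0.313% ± 0.0067 after fostamatinib (SD, n = 3). The values are relative to all other RNA in bulk samples, in which fewer cells of a kind and less RNA per cell cannot be told apart.

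**Figure D2:**
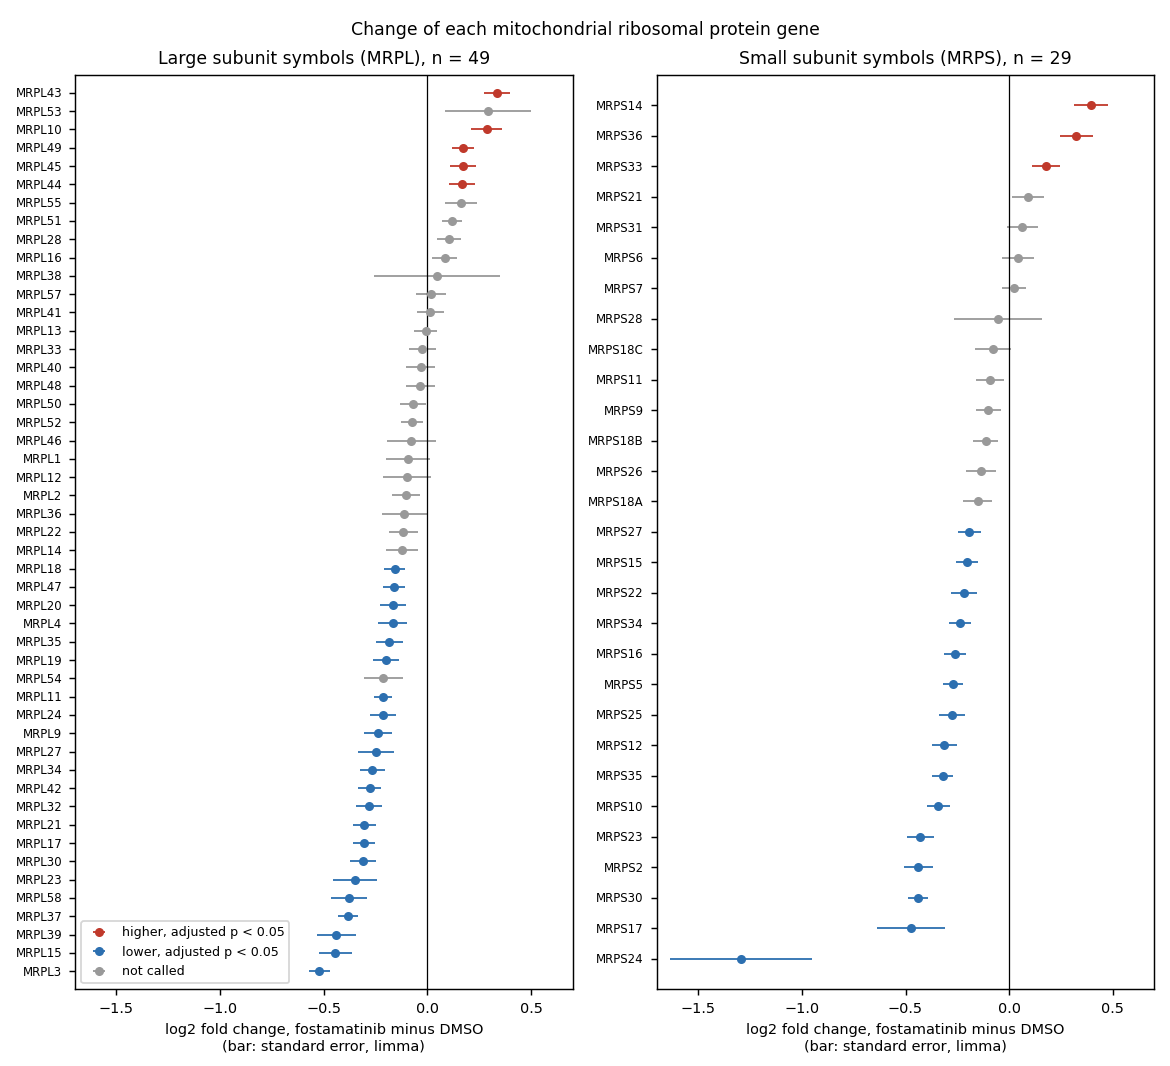
Log2 fold change of each gene, fostamatinib minus DMSO (x axis, points; bars are limma's standard errors, 3 samples per group), for the 49 MRPL genes (left) and the 29 MRPS genes (right). Blue points (22 and 15 genes) were called lower and red points (5 and 3) higher; MRPS24 stands alone at -1.29 with the widest bar.

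Both subunits were shifted downwards. Of the 49 genes with large subunit symbols 22 were lower, 5 higher and 22 not called (55.1% called), with a median of -0.12. Among the 29 with small subunit symbols 15 were lower, 3 higher and 11 not called (62.1% called), with a median of -0.19. Over all genes 47.8% were called, 24.5% lower and 23.3% higher. For those averaging 100 reads or more it was 61.1%, with 32.5% lower and 28.6% higher. The small subunit median was lower by 0.075, a gap that was not tested. This gap depended on a few genes and samples: it was 0.029 without genes that share exon bases with another gene on the same strand, and 0.047 without fostamatinib sample 2. The share of reads went from 0.221% ± 0.0014 to 0.199% ± 0.0042 for the large subunit and from 0.131% ± 0.00095 to 0.114% ± 0.0025 for the small subunit (SD, n = 3). Symbols do not always match position. MRPS18A (mL66) and MRPS30 (mL65) sit in the large subunit, and MRPS36 (KGD4) is not a ribosomal protein but a subunit of the 2-oxoglutarate dehydrogenase complex of the citric acid cycle. By position, 23 of 51 large subunit genes were lower and 5 higher (54.9% called). Of the small subunit genes 14 of 26 were lower and 2 higher (61.5% called).

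Homologues of bacterial ribosomal proteins made up most of the genes, and also most of those that were lower. Of the 48 homologues 26 were lower, 2 higher and 20 not called (58.3% called), with a median of -0.16. The 29 mitochondria-specific genes had 11 lower, 5 higher and 13 not called (55.2% called), with a median of -0.075. Both called shares were above the 47.8% of all genes but under the 61.1% of those averaging 100 reads or more. The difference in direction between the classes was seen in the large subunit. There 18 of 31 homologues were lower and 1 higher (61.3% called). Of the 20 mitochondria-specific genes 5 were lower and 4 higher (45% called). Without the mean-variance trend of the fit the homologues MRPL4, MRPL18, MRPL20, MRPL23, MRPL35 and MRPL47 lost their lower call. The higher calls of MRPL10 and MRPL45 were also lost and MRPL53 gained one, while the 5 lower mitochondria-specific genes kept theirs. In the small subunit 6 of 9 mitochondria-specific genes were lower and 1 higher (77.8% called), against 8 of 17 and 1 for the homologues (52.9% called). No test was run between the classes.

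In the core of the large subunit, MRPL3 (uL3m), a homologue of a bacterial protein near the site of peptide bond formation, had the clearest fall. The gene lies at chr3:131181056-131221827 on the minus strand (hg19), and the ETS letters of its promoter are shown above. It stood at a log2 CPM of 6.69, 6.62 and 6.67 in DMSO and 6.14, 6.06 and 6.21 after fostamatinib, so the groups were well apart. It fell by 0.52 on the log2 scale (SE 0.051, adjusted p = 9.66e-11, limma). Without the mean-variance trend of the fit its adjusted p was 0.00217 (limma). In percent it fell by 30.3. MRPL15 (uL15m), another core homologue, was at 4.64, 4.59 and 4.66 in DMSO and at 4.28, 4.20 and 4.08 after treatment. It fell by 0.44 (SE 0.080, adjusted p = 1.76e-05, limma), again without overlap. Outside the regions described below, the other homologues of the subunit that were lower were MRPL30 (-0.31), MRPL21 (-0.30), MRPL32 (-0.28), MRPL34 (-0.27), MRPL9 (-0.24), MRPL19 (-0.20), MRPL4 (-0.17) and MRPL20 (-0.17). The groups overlapped for MRPL4, and the calls of MRPL4 and MRPL20 were each lost in 4 of the 6 fits that left out a sample and without the mean-variance trend of the fit. MRPL1, MRPL2, MRPL13, MRPL14, MRPL16, MRPL28 and MRPL36 were not called, with log2 fold changes from -0.12 to 0.10.

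Of the mitochondria-specific proteins of the large subunit, MRPL37 (mL37) and MRPS30 (mL65), which neighbour each other in the particle, were both lower, as was MRPL39 (mL39). MRPL37 had log2 CPM values of 7.11, 7.16 and 7.01 in DMSO and 6.73, 6.73 and 6.69 after fostamatinib, a fall by 0.38 (SE 0.047, adjusted p = 1.40e-08, limma). MRPS30 was at 6.71, 6.68 and 6.76 against 6.27, 6.35 and 6.21, a fall by 0.44 (SE 0.050, adjusted p = 3.07e-09, limma). MRPL39 was at 4.30, 4.15 and 4.42 against 4.0, 3.76 and 3.79, a fall by 0.44 (SE 0.093, adjusted p = 0.000164, limma). For these 3 genes every treated sample lay under every DMSO sample.

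Other mitochondria-specific genes of the same subunit went up. MRPL43 (mL43) was at 5.05, 5.05 and 5.03 in DMSO and 5.43, 5.41 and 5.29 after fostamatinib. It rose by 0.33 (SE 0.064, adjusted p = 4.15e-05, limma), or by 26.1%, and its DMSO values were nearly identical. The gene, at chr10:102729215-102747272 on the minus strand (hg19), shares exon bases on the opposite strand with TWNK and SEMA4G, among them 13.1% of its canonical transcript. TWNK, the mitochondrial DNA helicase, fell by 0.90. The library kit keeps strand, but whether the counting used it is not stated in the sources used here. Other named genes also share canonical bases on the opposite strand. Their shares include 83.6% for MRPS18C, 60.6% for MRPS18A, 16.7% for MRPS2, 14.2% for MRPL3, 13.3% for MRPL44 and 9.7% for MRPL49. MRPL49 (mL49) was at 5.93, 5.93 and 5.98 against 6.13, 6.11 and 6.11, and rose by 0.17 (SE 0.052, adjusted p = 0.00599, limma) without overlap. MRPL51 (mL51), at 6.39, 6.41 and 6.42 against 6.62, 6.49 and 6.47, was at the threshold and not called (0.12, SE 0.050, adjusted p = 0.0502, limma). It was called higher in 8 of the alternative fits. MRPL42 (-0.28) was lower, and MRPL50 (-0.070) and MRPL57 (0.018) were not called.

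The stalk that recruits the translation factors held members in both directions. All 5 of its genes are given here, of which 40% were called, against 47.8% of all genes. MRPL10 (uL10m), which anchors the stalk, was at 4.73, 4.92 and 4.76 in DMSO and 5.24, 4.95 and 5.08 after fostamatinib. It rose by 0.29 (SE 0.075, adjusted p = 0.00187, limma), although DMSO sample 2 and fostamatinib sample 2 nearly met, and without the mean-variance trend of the fit its adjusted p was 0.0679. MRPL11 (uL11m), at the stalk base, was at 7.43, 7.51 and 7.48 against 7.31, 7.27 and 7.20 and fell by 0.21 (SE 0.043, adjusted p = 8.37e-05, limma). MRPL12 (bL12m), the mobile arm of the stalk, was not called at -0.098 (SE 0.12), and its groups overlapped. MRPL53 (0.29, SE 0.21) and MRPL54 (-0.21, SE 0.093) were not called, though neither overlapped between groups.

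The central protuberance, which faces the small subunit, had 4 of 10 genes lower, none higher and 6 not called, with a median of -0.077. Its called share of 40% was under the 47.8% of all genes. MRPL58 (mL62), which derives from a peptide release factor and can free stalled chains, was at 4.62, 4.43 and 4.40 in DMSO and 4.13, 4.19 and 4.0 after treatment. It fell by 0.38 (SE 0.085, adjusted p = 0.000358, limma), without overlap. The calls of MRPL27 (-0.25), MRPL35 (-0.18) and MRPL18 (-0.16) were each lost in 2 or 3 of the 6 fits that left out a sample, and those of MRPL35 and MRPL18 also without the mean-variance trend. The 6 others, MRPL33, MRPL38, MRPL40, MRPL46, MRPL48 and MRPL52, lay between -0.078 and 0.045.

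Around the exit tunnel, 4 of 7 genes were lower and 2 higher (85.7% called). The called share was 47.8% over all genes and 61.1% over those averaging 100 reads or more. MRPL17 (bL17m), with the NRF1 letters shown above, was at 6.27, 6.31 and 6.31 in DMSO and 6.08, 5.93 and 5.96 after fostamatinib, without overlap. It fell by 0.31 (SE 0.053, adjusted p = 8.71e-06, limma). MRPL24 (-0.22), MRPL23 (-0.35) and MRPL47 (-0.16) were also called lower, but the groups overlapped for MRPL23, whose call was lost without DMSO sample 2 or fostamatinib sample 1. The adjusted p of MRPL47 was 0.0789 without fostamatinib sample 3 and 0.0678 in the fit without a mean-variance trend, which also ended the call of MRPL23. MRPL22 was not called at -0.12 (SE 0.071).

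The genes that were higher at the tunnel were MRPL45 (mL45), which tethers the ribosome to the inner membrane, and MRPL44 (mL44), which carries a fold related to ribonuclease III. MRPL45 was at 5.55, 5.45 and 5.49 in DMSO and 5.64, 5.80 and 5.57 after fostamatinib. It rose by 0.17 (SE 0.062, adjusted p = 0.0218, limma), but the lowest treated value was only just above the highest DMSO value. Its adjusted p was 0.0753 without DMSO sample 2, 0.223 without fostamatinib sample 2 and 0.127 without the mean-variance trend. MRPL44 was at 5.0, 5.02 and 5.03 against 5.20, 5.18 and 5.17 and rose by 0.17 (SE 0.064, adjusted p = 0.0308, limma). Both groups were tight and apart, yet its adjusted p was 0.0529 to 0.0841 in the 5 fits that left out a sample other than DMSO sample 3.

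**Figure D3:**
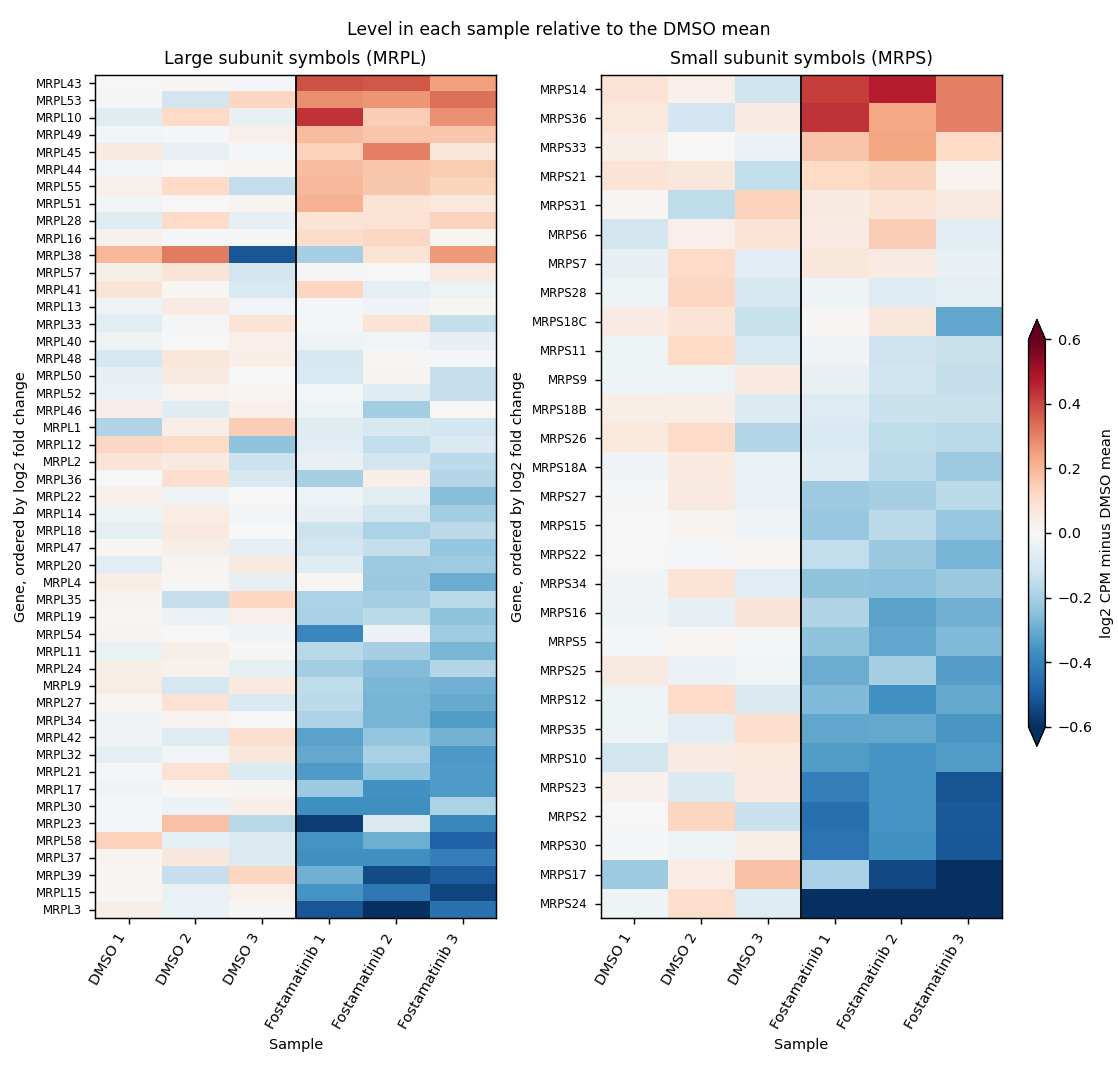
Log2 CPM minus the gene's DMSO mean (colour, from blue for lower to red for higher, on a scale that ends at 0.6) in each of the 6 samples (columns) for every MRPL gene (left) and MRPS gene (right), ordered by log2 fold change. The 3 DMSO columns stay near white, and the lower rows are blue in all 3 fostamatinib columns. The uneven rows include MRPL38, which had a mean of 19 reads in DMSO.

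In the small subunit the falls included both homologues and mitochondria-specific proteins. MRPS2 (uS2m), a homologue at the junction of the body and the head, was at 5.42, 5.55 and 5.29 in DMSO and 4.97, 5.06 and 4.91 after fostamatinib. It fell by 0.44 (SE 0.069, adjusted p = 2.13e-06, limma). MRPS23 (mS23) was at 5.62, 5.51 and 5.66 against 5.19, 5.24 and 5.08 and fell by 0.43 (SE 0.063, adjusted p = 6.71e-07, limma). Neither gene overlapped between groups. MRPS10 (uS10m), whose ETS and YY1 letters are shown above, was at 5.92, 6.08 and 6.09 against 5.69, 5.68 and 5.69. It fell by 0.34 (SE 0.057, adjusted p = 4.96e-06, limma). The treated values were nearly the same and all lay under the lowest DMSO value.

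MRPS12 (uS12m), the protein of the decoding centre, was at 5.69, 5.84 and 5.64 in DMSO and 5.46, 5.36 and 5.41 after treatment and fell by 0.31 (SE 0.061, adjusted p = 6.08e-05, limma). The remaining genes of the subunit that were lower, apart from MRPS24 and MRPS17 below, were MRPS35 (-0.32), MRPS25 (-0.28), MRPS5 (-0.27), MRPS16 (-0.26), MRPS34 (-0.24), MRPS22 (-0.22), MRPS15 (-0.20) and MRPS27 (-0.19). None of these overlapped between groups. MRPS6, MRPS7, MRPS9, MRPS11, MRPS21, MRPS26 and MRPS31 were not called, with log2 fold changes from -0.14 to 0.091. MRPS27, whose YY1 letters are given above, belongs to the pentatricopeptide repeat family of RNA-binding proteins.

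MRPS14 (uS14m), a homologue in the head of the small subunit, rose most of all 78 genes. It stood at 4.31, 4.26 and 4.10 in DMSO and at 4.64, 4.69 and 4.53 after fostamatinib, with all treated samples above all DMSO samples. The rise was 0.40 (SE 0.082, adjusted p = 0.000117, limma), or 31.6%. The gene lies at chr1:174979925-174992561 on the minus strand (hg19). MRPS33 (mS33) was at 4.96, 4.91 and 4.88 against 5.09, 5.15 and 5.04 and rose by 0.18 (SE 0.067, adjusted p = 0.0286, limma). The groups did not overlap, but the adjusted p of MRPS33 was 0.0558 without DMSO sample 2, 0.0568 without DMSO sample 3, 0.0610 without fostamatinib sample 1 and 0.128 without fostamatinib sample 2. MRPS36, the 2-oxoglutarate dehydrogenase subunit, was at 4.51, 4.34 and 4.50 against 4.89, 4.68 and 4.75. It rose by 0.32 (SE 0.078, adjusted p = 0.000752, limma), so 1 of the 3 small subunit symbols that were higher is not a ribosomal gene.

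The 3 paralogues of bacterial S18, of which a single ribosome carries all, were not called. MRPS18A (mL66, large subunit) was at 4.93, 5.01 and 4.92 in DMSO and 4.87, 4.80 and 4.73 after fostamatinib, a difference of -0.15 (SE 0.070, adjusted p = 0.0746, limma) without overlap. MRPS18B (mS40) was at 5.69, 5.69 and 5.57 against 5.57, 5.52 and 5.52, a difference of -0.11 (SE 0.059). It was called only without DMSO sample 3 (-0.15, adjusted p = 0.0295, limma). MRPS18C (bS18m) was at 4.62, 4.65 and 4.44 against 4.57, 4.64 and 4.26, a difference of -0.079 (SE 0.088), and its estimate was 0.037 without fostamatinib sample 3. MRPL55 (bL31m) was not called either, at 4.58, 4.67 and 4.40 against 4.75, 4.71 and 4.68 (0.16, SE 0.078). Its treated values lay above its DMSO values, and without DMSO sample 2 it was called higher (0.22, adjusted p = 0.0302, limma).

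The largest estimate belonged to a gene with very few reads. MRPS24 (uS3m) was at log2 CPM 0.77, 0.90 and 0.72 in DMSO and -1.32, -0.19 and 0.03 after fostamatinib. The groups did not overlap, and it fell by 1.29 (SE 0.34, adjusted p = 0.00200, limma), from a mean of 25 reads to 10. Of its canonical transcript 90.9% of bases are also exon of the readthrough gene URGCP-MRPS24 on the same strand (hg19, chr7:43906157-43909492, minus strand), and how reads common to 2 genes were counted is not given in the sources used here. The same held for the 4 other genes with a mean under 100 reads. The share of canonical bases that another gene covers on the same strand was 94.3% for MRPL38, 99.2% for MRPL53, 56.2% for MRPS28 (bS1m) and 29.4% for MRPS17. In this annotation such sharing was not confined to genes with few reads, as it was 97.1% for MRPS5, with a mean of 1410 reads in DMSO. The overlaps were read from GENCODE version 44, whereas the reads were counted on version 22. Whether the overlapping genes were already in version 22 was not checked. MRPS17 was called lower (-0.47, SE 0.16, adjusted p = 0.0160, limma), but the groups overlapped, at 2.33, 2.60 and 2.73 against 2.36, 2.01 and 1.87, and the call was lost without the mean-variance trend and without DMSO sample 2 or 3 or fostamatinib sample 2 or 3. MRPS28, at 1.32, 1.48 and 1.26 against 1.33, 1.28 and 1.29, was not called (-0.054, SE 0.21).

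In GENCODE version 44, 18 of the 78 genes share exon bases with a gene on the same strand and 30 with a gene on the opposite strand. The 37 genes that share none had 16 lower, 4 higher and a median of -0.12. Over all genes 24.5% were called lower and 23.3% higher, and over those averaging 100 reads or more 32.5% and 28.6%. The counts thus leaned to the lower side in this subset too. The pseudogene and antisense rows left out of the set took 0.00055% ± 0.000090 of reads in DMSO and 0.00047% ± 0.000024 after fostamatinib (SD, n = 3).

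Levels differed widely between the genes when set per kilobase of exon and scaled to library size (RPKM). Over all annotated exons of a gene, MRPL41 (71.5 ± 4.16), MRPL11 (69.9 ± 1.86) and MRPL47 (62.3 ± 1.86) were highest in DMSO (SD, n = 3). MRPL38 (0.389 ± 0.112), MRPS24 (0.654 ± 0.0439) and MRPL46 (1.37 ± 0.0589) were lowest. The median was 16.4 in DMSO and 13.9 after fostamatinib. The order rests on the exon length used. With the length of the canonical transcript alone the highest were MRPL11 (110.6), MRPL21 (100.9) and MRPL51 (94.5), and the median was 29.3. MRPL41 was at log2 CPM 5.46, 5.39 and 5.29 in DMSO and 5.51, 5.32 and 5.35 after fostamatinib. The groups overlapped, and it was not called (0.014, SE 0.065). MRPL38 was at 0.57, 0.68 and -0.14 in DMSO and 0.17, 0.45 and 0.63 after fostamatinib, and was not called (0.045, SE 0.30). MRPL46, at 3.18, 3.06 and 3.17 against 3.11, 2.93 and 3.14, was not called (-0.078, SE 0.12).

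**Figure D4:**
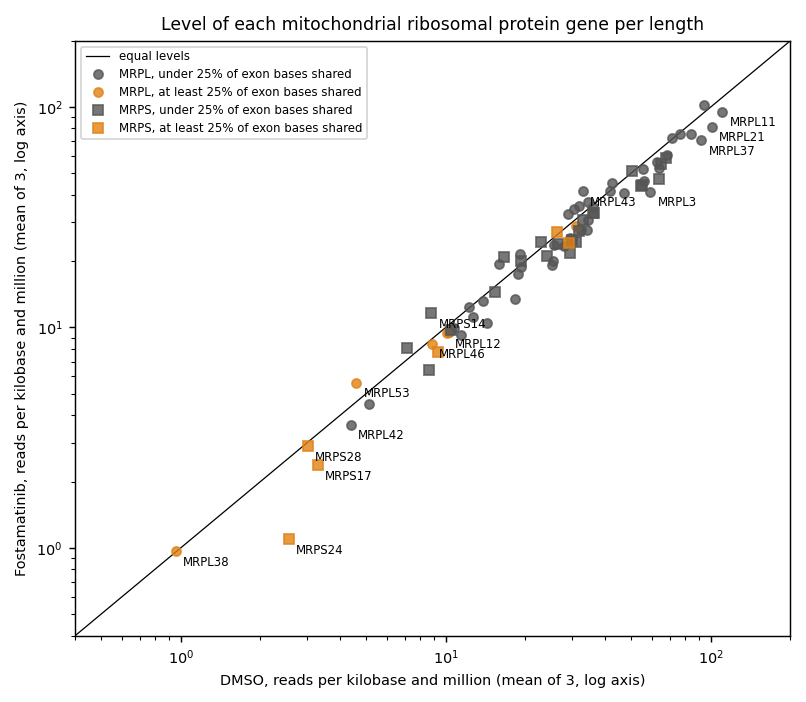
Mean level of each gene per kilobase of canonical transcript, scaled to library size (RPKM), in DMSO (x axis, log scale) and after fostamatinib (y axis, log scale), with the line of equal levels. Most points lie on or just under the line over a range from under 1 (MRPL38) to 110.6 (MRPL11) in DMSO. Orange points are genes with at least 25% of canonical exon bases shared on the same strand in GENCODE version 44. They include the lowest points but also others well above these, such as MRPS5 (29.2 in DMSO).

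Across the 78 genes the log2 fold change did not follow the DMSO level (Pearson r = 0.070, Spearman rho = -0.12) or the exon length (r = -0.13, rho = -0.094). These are descriptions across genes of the same 6 libraries, and genes are not independent replicates. The genes were spread over 21 chromosomes. A protein-coding neighbour that starts within 1000 bases on the other strand was found for 17 of them (21.8%), against 11.3% of protein-coding genes in the files. For the 16 with a measured partner, both genes were called the same way in 2 pairs (MRPL18 with TCP1 and MRPL30 with MITD1, all lower) and opposite ways in 1, MRPL47 (-0.16) with NDUFB5 (0.19), a subunit of complex I. These pairs are named after their values were seen. MRPL46 and MRPS11 face each other 63 bases apart, and neither was called.

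Mitoribosomal proteins with other symbols were on the same side. Of 5 genes, 3 were lower, none higher and 2 not called (60% called). The called share was 47.8% over all genes and 61.1% over those averaging 100 reads or more. GADD45GIP1 (mL64), a large subunit protein near the tunnel exit, was at log2 CPM 5.46, 5.42 and 5.28 in DMSO and 5.07, 4.97 and 5.01 after fostamatinib, and fell by 0.37 (SE 0.066, adjusted p = 1.51e-05, limma). PTCD3 (mS39), a pentatricopeptide repeat protein where the messenger RNA enters, was at 6.60, 6.61 and 6.61 against 6.45, 6.38 and 6.37 and fell by 0.21. DAP3 (mS29), the GTP-binding protein of the small subunit, was at 7.63, 7.62 and 7.58 against 7.47, 7.51 and 7.45 and fell by 0.14. The groups did not overlap for any of these 3 genes. AURKAIP1 (mS38, -0.042, SE 0.052) and CHCHD1 (mS37, -0.032, SE 0.076) were not called.

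The genes that act around the mitochondrial ribosome were read against the same 47.8% called over all genes. Of the genes averaging 100 reads or more, 61.1% were called. Of 18 mitochondrial translation factors 8 were lower, 2 higher and 8 not called (55.6% called), with a median of -0.089. LRPPRC, which stabilises mitochondrial messenger RNAs, was at log2 CPM 8.18, 8.14 and 8.25 in DMSO and 7.73, 7.71 and 7.65 after fostamatinib and fell by 0.49. The elongation factor GFM1 fell by 0.47 and the transfer RNA modifier GTPBP3 by 0.43. The initiation factor MTIF3 (0.43) and the inner membrane insertase OXA1L (0.35) were higher. Of 28 assembly and ribosomal RNA modification genes 10 were lower, 1 higher and 17 not called, with a median of -0.090. Their called share of 39.3% was under that of all genes. The ribosomal RNA methyltransferases MRM1 (-1.21, from a mean of 63 reads to 25.3) and TFB1M (-0.58) and the assembly factor FASTKD2 (-0.56) fell most, and METTL15 (0.24), which methylates the small subunit RNA, was higher.

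Genes of mitochondrial DNA copying, transcription and RNA processing had 9 of 17 lower, none higher and 8 not called (52.9% called), with a median of -0.24. TWNK was at 5.23, 5.34 and 5.22 in DMSO and 4.42, 4.30 and 4.37 after treatment, and the RNA-degrading enzyme PNPT1 at 6.16, 6.16 and 6.14 against 5.41, 5.32 and 5.39. TFAM, which packages mitochondrial DNA and starts its transcription, was at 6.23, 6.28 and 6.60 against 5.78, 5.78 and 5.75. The 3 genes fell by 0.90, 0.78 and 0.60 on the log2 scale, with no overlap. Of 10 regulators of mitochondrial biogenesis 5 were lower, 2 higher and 3 not called. The coactivators PPARGC1B (-1.07) and PPRC1 (-0.62) and the GABP subunit GABPB1 (-0.47) were lower, and the coactivator PPARGC1A (0.92) and YY1 (0.11) higher. NRF1 (0.018, SE 0.084) and GABPA (-0.054, SE 0.079), the factors of the other motifs above, were not called. Among 12 mitochondrial proteases 9 were not called, and the called share of 25% was under that of all genes. LONP1 (-0.52) and AFG3L2 (-0.12) were lower and SPG7 (0.46) was higher. AFG3L2 and SPG7 form the protease that matures MRPL32.

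The RNAs encoded in mitochondria went the other way. MT-RNR1, the ribosomal RNA of the small subunit, was at log2 CPM 9.85, 9.70 and 9.66 in DMSO and 10.27, 10.14 and 10.02 after fostamatinib, and rose by 0.41 (SE 0.045, adjusted p = 1.50e-09, limma). MT-RNR2, that of the large subunit, was at 13.25, 13.32 and 13.26 against 13.93, 13.92 and 13.93 and rose by 0.65 (SE 0.029, adjusted p = 1.11e-19, limma). Neither overlapped between groups. Of the 13 mitochondrial messenger RNAs 12 were higher, with a median of 0.31, led by MT-ND5 (0.45), MT-CYB (0.43) and MT-ND1 (0.37). MT-ND6, the only messenger RNA from the other strand of mitochondrial DNA, was not called (-0.038, SE 0.054). The libraries were made from poly(A)-selected RNA, and how tails bear on these values was not tested.

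For comparison, the proteins of cytosolic ribosomes had 29 of 82 genes lower, 6 higher and 47 not called (42.7% called), with a median of -0.056. Nuclear subunits of oxidative phosphorylation, the complexes that mitochondrial ribosomes serve, had 27 of 76 genes higher, 8 lower and 41 not called (46.1% called), with a median of 0.078. The subunits NDUFB10 (0.48), NDUFA2 (0.45) and COX6A1 (0.29) were higher, and ATP5G1 (-0.46), SDHD (-0.37) and NDUFB9 (-0.23) lower. Among the cytosolic ribosomal proteins RPL36A (-0.71), RPL17 (-0.45) and RPS10 (-0.38) fell most and RPL28 (0.19), RPS28 (0.16) and RPLP0 (0.14) rose most. No test was run between the lists.

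**Figure D5:**
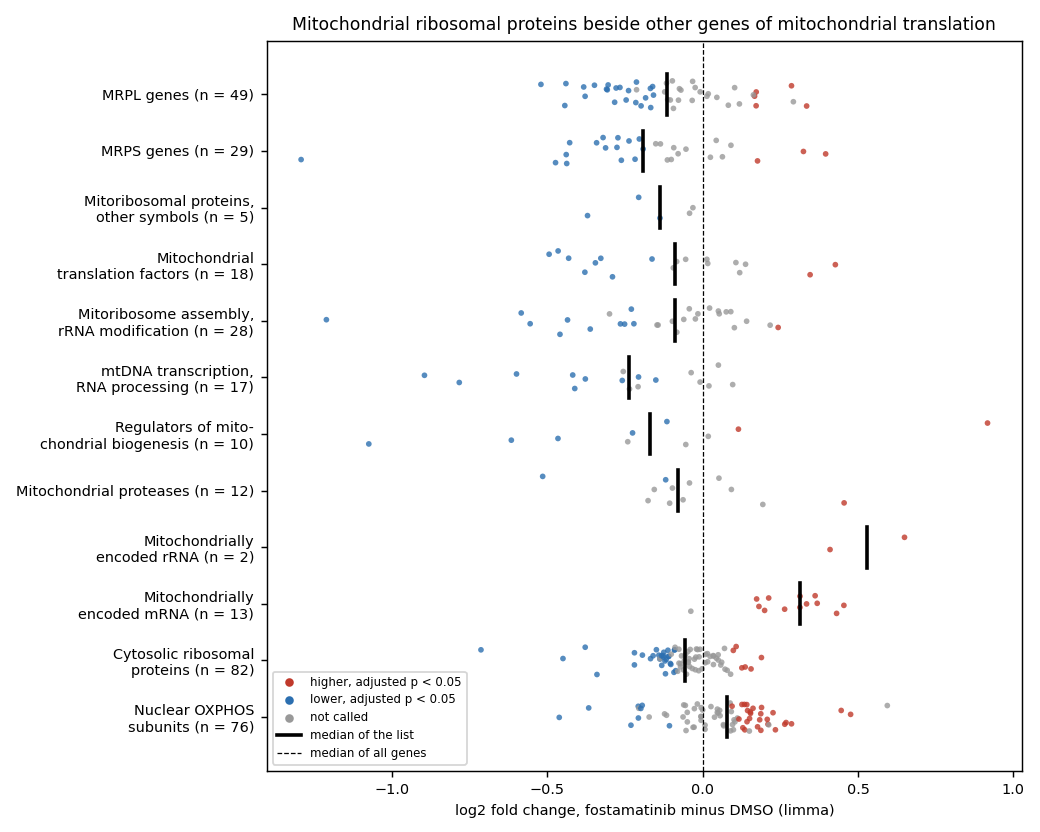
Log2 fold change, fostamatinib minus DMSO (x axis), of every gene (points; blue lower, red higher, grey not called) in the MRPL and MRPS genes and 10 lists of related genes, with each list's median as a black bar and the median of all genes as a dashed line. The medians of the MRPL (-0.12) and MRPS (-0.19) genes lie left of the line, those of mitochondrially encoded messenger RNAs (0.31) and nuclear oxidative phosphorylation subunits (0.078) right of it.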

How the data were processed

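RNA was poly(A)-selected, and libraries were made with a directional kit and sequenced for 6 samples, 3 per group. According to the study's methods and the labels, HISAT was used for mapping to hg19 and featureCounts for counting on GENCODE version 22. Genes that did not reach 5 reads in enough samples of either group were dropped, and TMM factors scaled the libraries. What the authors deposited is log2 CPM, with 0.5 added to each count before division by the scaled library size. The counting of reads by strand or shared between genes is not given in the sources used here.

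Treatment was tested in limma 3.58.1 (R 4.3.3) by lmFit and by eBayes with its trend option, on all 16305 genes, at a threshold of 0.05 after Benjamini-Hochberg adjustment. The fit was tried on simulated data in which 200 genes were changed, far fewer than the 7794 called here. That trial does not measure the error rate where so many genes change. Undoing the log2 scale gave back the reads of each gene, all within 0.05 of a whole number, and from them the depth (13303451 to 15272737 reads) and the levels per length. With limma-voom on those reads 7791 genes were called, against 7794. Exons, overlaps and coordinates came from GENCODE version 44 lifted to GRCh37, which held 98.7% of the gene identifiers. Promoters came from RefSeq on GRCh38.p14 and were not placed on hg19. Python 3.11.15, with numpy 2.4.6 and pandas 2.3.3, was used for the other steps.

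The members and the gene lists were chosen with earlier results of these data known. Genes named with values were, among called members without overlap, the 8 that rose most and the 8 that fell most, the 3 highest and 3 lowest per length, members whose structural name departs from the symbol, mitoribosomal proteins with other symbols, the mitochondrial ribosomal RNAs and, in each related list, up to 3 called genes each way. Members of the small structural regions are all given. MRPL42, NRF1, GABPA, MT-ND6 and the other members outside this rule were added after their values were seen. An exact permutation test of 3 samples against 3 cannot go below p = 0.10, so single genes were read from limma. The alternatives covered the weighting, scaling, pseudocount, filter, threshold, replicate block and each sample left out. A further alternative, without members that share exon bases on the same strand, was chosen after seeing the data.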

Additional observations from a re-analysis of the deposited data

How the results depend on the processing

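Of 148 alternative values for the counts and medians, 131 stayed within 1.5 times the count or 1 SD of the median. With the threshold of 1 expected false positive, 17 genes were lower and 2 higher, 9 and 1 of them of the large subunit and 8 and 1 of the small. With at least 10 reads in every sample the medians of the subunits differed by 0.055, and MRPS24 was not tested. Without members that share exon bases on the same strand the small subunit median was -0.15 and the difference 0.029. Over the 6 fits that left out a sample, 5 to 8 genes were higher and 31 to 37 lower. For the large subunit these counts were 3 to 6 and 17 to 21, and for the small subunit 2 to 3 and 14 to 16. The medians were -0.16 to -0.10 (large) and -0.21 to -0.17 (small), and their difference 0.047 to 0.083. The library whose removal lowered the count of higher genes to 5, 3 of them in the large subunit, was fostamatinib sample 2.

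Of the mitochondrial ribosomal protein genes recomputed singly, 4 turned sign, none of them called: MRPS28 to 0.0086 without DMSO sample 2, MRPL41 to -0.032 without DMSO sample 3 and -0.044 without fostamatinib sample 1, MRPL38 to -0.21 without DMSO sample 3 and -0.060 without fostamatinib sample 3, and MRPS18C to 0.037 without fostamatinib sample 3. The highest estimates without a sample were 0.052 for MRPL41 and 0.20 for MRPL38. Without the mean-variance trend the calls of MRPL4, MRPL10, MRPL18, MRPL20, MRPL23, MRPL35, MRPL45, MRPL47 and MRPS17 were lost and that of MRPL53 gained, and the cause was not tested. In that fit 7 members were higher and 30 lower, and 6382 of all genes were called. Calls that stayed had larger adjusted p-values there, such as 0.00217 for MRPL3, 0.00346 for MRPS30 and 0.00509 for MRPL37 (limma). MRPL51 was called higher with limma-voom, RLE scaling, 2 reads added, either stricter filter or the replicate block, which gave 9 higher genes each, and without DMSO sample 3 or fostamatinib sample 3. Same-numbered samples did not deviate together (r = 0.036, -0.021 and 0.037 over 12249 genes), so the replicate numbers are taken as names. With a replicate block 7977 genes were called against 7794, no member lost its call, and MRPL51 and MRPL54 gained it. Depth limits precision most for the 5 members with a mean under 100 reads, whose standard errors reach 0.34.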
